A study of Danio rerio with 17 samples.

Results

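The gene lin28a (ENSDARG00000016999) encodes an RNA-binding protein and is 1 of the 4169 gene IDs that the RNA tables of the series hold. It was chosen by its symbol, which stands on 1 row of the prdm3 table and 1 row of the prdm16 table, and because both tables list it higher in the mutant. The samples were sox10:GFP positive cranial neural crest cells, the embryonic cells that give rise to most of the facial skeleton, sorted from pooled zebrafish embryos at 48 hours post fertilization. The RNA groups used here were prdm3-/- (n = 3 libraries), prdm16-/- (n = 2) and wildtype (n = 3), and all of them carried the sox10:GFP reporter by which the cells were sorted. Prdm3 and Prdm16 are zinc finger proteins of the PRDM family, and the title of the series names Wnt/β-catenin activity and the differentiation of craniofacial chondrocytes as what they regulate. Replicate 3 of the prdm16 mutant RNA libraries and the 8 ATAC-seq libraries of the series were not analysed here. The label of wild type replicates 1 and 2 names prdm3 and that of wild type replicate 3 names prdm16, so the prdm3 comparison below holds 1 wild type library with each name, and in the prdm16 comparison 2 of the 3 wild type libraries carry the name prdm3. Nothing in the labels says whether the pools of a group came from separate crosses, so the spread between libraries may be technical in part.

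LIN28 proteins bind the precursors of the let-7 microRNAs, the bound precursor is given a tail of uridines by TUT4 or TUT7, and the nuclease DIS3L2 then degrades it. Mature let-7 represses growth and proliferation genes such as those of the HMGA2, IGF2BP, MYC, RAS and cyclin D families, and it also represses LIN28 itself. LIN28 binds many messenger RNAs as well. In the chick embryo, Lin28a acts downstream of Wnt signalling to hold neural crest cells in a multipotent state. Levels below are FPKM, fragments scaled by transcript length and by all mapped fragments, so they are relative to the rest of a library. A difference is that of the means of log2(FPKM + 1), in which genes at low levels appear to change less than they do.

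The 3 genotypes held lin28a at levels that did not overlap, highest in prdm16 mutants, lower in prdm3 mutants and lowest in wild type cells. In prdm3 mutants lin28a was listed at 28.3, 49.2 and 29.6 FPKM in replicates 1, 2 and 3. In prdm16 mutants it was listed at 198 and 331 FPKM in replicates 1 and 2. In wild type cells it was listed at 18.3, 9.53 and 13.5 FPKM in replicates 1, 2 and 3. The lowest prdm16 mutant library thus lay above the highest prdm3 mutant library, and the lowest prdm3 mutant library above the highest wild type library. These differences chose the gene, so they are a description and carry no test.

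**Figure D1:**
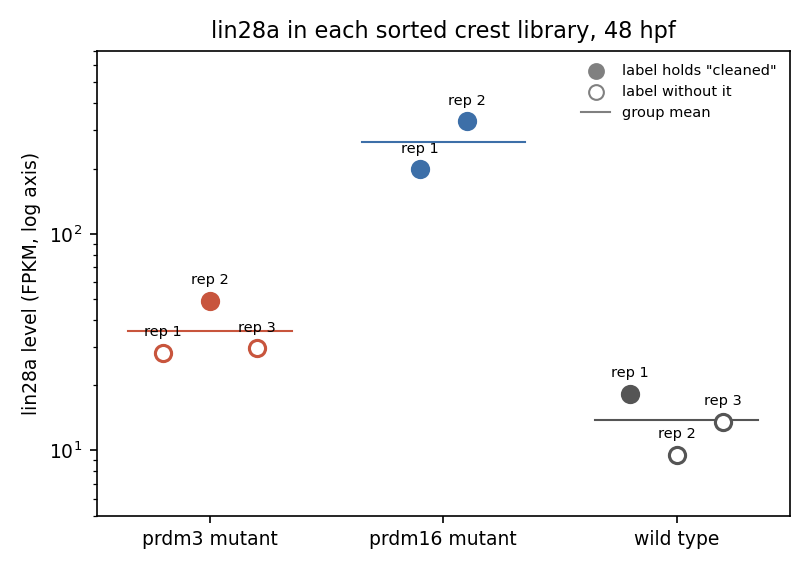
Level of lin28a in FPKM (log axis) in each RNA library, by genotype, with a line at the mean of each group; filled points are libraries whose label holds the word cleaned. The prdm3 mutants sit between 28.3 and 49.2, the prdm16 mutants at 198 and 331, and the wild types between 9.53 and 18.3.

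The prdm3 table sets 3 mutant libraries against wild type replicates 2 and 3. There lin28a averaged 35.7 ± 11.7 FPKM in prdm3 mutants (SD, n = 3) and 11.5 ± 2.83 FPKM in wild type cells (SD, n = 2), a ratio of means of 3.10. The log2 difference was 1.52 ± 0.37 (SE). The lowest mutant library held 2.09 times the level of the highest wild type library of that table. The authors' deposited table gives lin28a an unadjusted p of 0.0251 and a q of 0.321, so it is listed for its unadjusted p alone. With wild type replicate 1, which the prdm3 table does not hold, the log2 difference was 1.31, and against the wild type libraries named for prdm3 alone (replicates 1 and 2) it was 1.32. Of all rows listed there 94.2% were higher. Rescaling each library by the median ratio over the 1487 rows above 0 in every library removed a shift of 0.75 between the groups. Relative to that shift lin28a differed by 0.81. Those rows were themselves selected for differing, so the shift holds the listed differences as well as any scaling.

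The prdm16 table sets mutant replicates 1 and 2 against all 3 wild type libraries. Mean levels of lin28a were 265 ± 93.9 FPKM in prdm16 mutants (SD, n = 2) and 13.8 ± 4.38 FPKM in wild type cells (SD, n = 3), a ratio of means of 19.2. The log2 difference was 4.16 ± 0.43 (SE), and 4.15 against the 1 wild type library named for prdm16. The lowest mutant library held 10.8 times the level of the highest wild type library. The authors' deposited table gives lin28a an unadjusted p of 0.00228 and a q of 0.0173. Both mutant libraries were listed at 0 in 2540 of the 2990 rows of this table, and the part of this in the FPKM of lin28a was not tested. Of the 10623 genes tested, 0.734% were listed higher and 27.4% lower, and nothing about lin28a is read from these shares.

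Ordered by log2 difference, lin28a was 7th of 1520 rows in the prdm3 table and 3rd of 2990 rows in the prdm16 table. These places depend on the pseudocount of 1 FPKM: with 0.1 FPKM lin28a was 97th in the prdm3 table and 6th in the prdm16 table. Directly above it in the prdm3 table stood si:dkey-15h8.16 (1.79), slbp (1.79), whose product binds histone messenger RNA, and si:ch1073-104i17.1 (1.66). Directly below it stood lmbr1l (1.49), FP074902.2 (1.49) and the POU factor gene pou2f2a (1.48). These 6 rows had mutant means between 3.02 and 13.3 FPKM, all under the 35.7 FPKM of lin28a. Above it in the prdm16 table stood the small RNA RF00012 (10.8) and the tubulin carboxypeptidase gene vash2 (4.18). Below came the lysosomal transcription factor gene tfeb (3.94), sh3glb2b (3.91) and the septin gene sept5a (3.85). By level, lin28a went with the abundant rows of the prdm16 mutants. Among the 128 rows above 0 in every library, it was 8th in prdm16 mutant replicate 1 and 6th in replicate 2, against 37th, 57th and 37th in wild type replicates 1, 2 and 3. Relative to a shift of 1.22, by the median ratio over these 128 rows, the log2 difference of lin28a was 2.98. Those rows passed the authors' threshold and were above 0 in both mutant libraries. The ranks thus rest on the values that chose lin28a, and the shift holds the listed differences as well as any scaling.

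**Figure D2:**
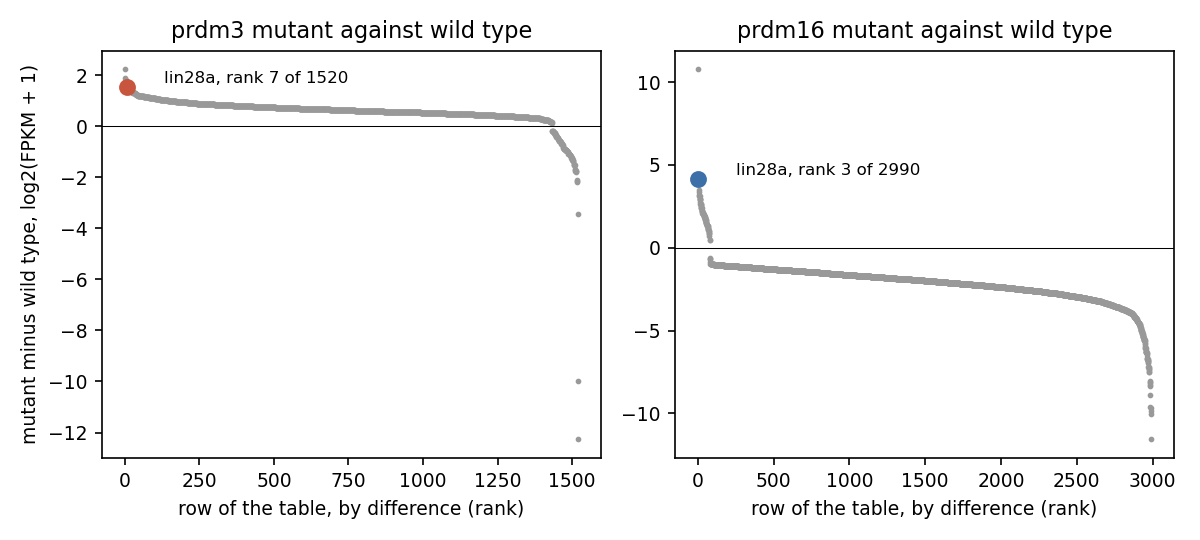
Every row of the prdm3 table (left) and of the prdm16 table (right), ordered along the horizontal axis by rank, against the mutant minus wild type difference on the log2(FPKM + 1) scale. The coloured point is lin28a, 7th of 1520 at 1.52 and 3rd of 2990 at 4.16 (97th and 6th with a pseudocount of 0.1 FPKM in place of 1); both tables hold selected rows only, so genes that did not pass are missing from the curves.

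The labels of prdm3 mutant replicate 2, prdm16 mutant replicates 1 and 2 and wild type replicate 1 hold the word cleaned, whose meaning is not given in the sources used here. Within the prdm3 mutants and within the wild types, the library with that word held the most lin28a. Among libraries with the word, the level was 49.2 FPKM in the prdm3 mutant, 198 and 331 FPKM in the prdm16 mutants and 18.3 FPKM in the wild type. Among those without it, the level was 28.3 and 29.6 FPKM in prdm3 mutants against 9.53 and 13.5 FPKM in wild types. The log2 difference for prdm3 was 1.38 among libraries with the word and 1.28 among those without it, and that for prdm16 was 3.74 among libraries with it. Other genes moved with these libraries too. Prdm3 mutant replicate 2 was the highest mutant library in 43.1% of the 1432 rows listed higher, and wild type replicate 1 was the highest wild type library in 50.9% of the 2990 rows of the prdm16 table. The labels also open with a number, whose meaning is not given in the sources used here and which differs from the replicate number. It is 3 for prdm3 mutant replicate 2, prdm16 mutant replicate 2 and wild type replicate 1, and in each genotype that library held the most lin28a (49.2, 331 and 18.3 FPKM). It is 4 for prdm3 mutant replicate 3, at 29.6 FPKM, and for wild type replicates 2 and 3, at 9.53 and 13.5 FPKM. Among the libraries numbered 3, the log2 difference was 1.38 for prdm3 and 4.11 for prdm16, and among those numbered 4 it was 1.31 for prdm3. All libraries numbered 3 also hold the word cleaned. The part of the word and of the number in the levels of lin28a beyond these values was not tested.

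Zebrafish have a further lin28a-type paralog, which RefSeq names lin28aa, and lin28b. RefSeq (assembly GRCz12tu) lists the symbol lin28a as a synonym of lin28ab. The lin28aa paralog was not among the listed rows, and whether reads of the 2 copies could be told apart was not checked. The paralog lin28b (ENSDARG00000052511), which also blocks let-7 maturation, was listed in the prdm3 table. Its level was 15.5, 14.2 and 15.3 FPKM in prdm3 mutants and 12.2 and 12.8 FPKM in wild type replicates 2 and 3, so these libraries did not overlap. Listing at an unadjusted p below 0.05 selects for such separation, and wild type replicate 1 has no listed value for lin28b. The log2 difference was 0.24 ± 0.05 (SE), or -0.46 relative to the shift of the listed rows, with p = 0.0203 and q = 0.311 in the authors' deposited table. Within a library, the ratio of lin28a to lin28b was 1.82, 3.46 and 1.94 in prdm3 mutant replicates 1, 2 and 3, against 0.779 and 1.06 in wild type replicates 2 and 3. The 2 genes stood at similar FPKM in wild type cells, and lin28a was the higher of them in each prdm3 mutant library. That ratio does not depend on how libraries were scaled. In the prdm16 table lin28b was not listed. For comparison in that table, the translation factor gene eef1a1l1 was at 1592 and 1619 FPKM in prdm16 mutants and at 1218, 1088 and 1172 FPKM in wild types. It is no neutral reference, since it was itself listed higher in prdm16 mutants (q = 0.0257 in the authors' deposited table). Its log2 difference was 0.47, or -0.75 relative to the shift of the listed rows above 0 in every library. The level of lin28a was 12.4% and 20.4% of it in the prdm16 mutants, against 1.502%, 0.876% and 1.15% in the wild types.

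Of the lin28a and let-7 pathway, 26 genes were listed as higher in prdm3 mutants by FPKM. Relative to the shift of 0.75 between the groups, 14 of these 26 genes lay below wild type, as did 631 of all 1432 rows listed higher. That shift was taken from rows selected for differing, most of them higher, so many of them fall below wild type by construction. Nothing about the pathway is read from the 14. Of 123 pathway genes other than lin28a, 26 were listed as higher (21.1%), beside 12.7% of all 11242 genes tested at the same unadjusted p below 0.05. Listed as lower were 0, near the 0.783% of all genes tested, so nothing is read from that count. At q below 0.05 there were 0 members, beside 0.0089% of all genes tested, so each is a listing at the unadjusted p and not a call over all genes. Among the 48 let-7 targets known in vertebrates, 17 were listed as higher (35.4%) and 0 as lower. Members that the authors may not have tested are counted in these shares. The lists were chosen with earlier results of these data known, those of ccnd1 and tgfbr1b among them, so the shares are a description. The median log2 difference of the 17 was 0.62, near the median of 0.64 of all rows listed higher. In each of the 17, all 3 mutant libraries lay above wild type replicates 2 and 3. Listing at that p selects for such separation, and its share over all rows listed higher was not counted. Wild type replicate 1 is listed for nras, tgfbr1a and cdc34b. It lay below all prdm3 mutant libraries for nras and tgfbr1a. For cdc34b it was at 12.0 FPKM, above prdm3 mutant replicates 1 and 3 (11.3 and 11.2 FPKM). With a mutant library left out, an unadjusted p below 0.05 was reached, in the test that gives back the authors' p, by 8 of the 17 without replicate 1, 7 without replicate 2 and 6 without replicate 3. Of the 1432 rows listed higher, 805, 702 and 722 did so without replicates 1, 2 and 3. Fewer libraries lower such counts by themselves, and genes that were not listed could not enter them. Mutant replicate 2 was the highest mutant library for 10 of the 17 (58.8%), beside 43.1% of all 1432 rows listed higher. Relative to the shift of the listed rows, 6 of the 17 stayed above wild type (igf1ra, ccnd1, trim71, hmga1a, tgfbr1b and igf2bp3) and 11 lay below it. This split goes by sign alone. Close to wild type lay hmga1a, tgfbr1b and igf2bp3 (0.06, 0.06 and 0.03) and, below it, mycn, plagl2 and nras (-0.01, -0.02 and -0.05). Of all 1432 rows listed higher, 801 stayed above wild type and 631 lay below it.

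Values in FPKM follow for the growth regulators among the let-7 targets. The MYC family gene mycn was at 29.3, 31.5 and 27.0 FPKM in prdm3 mutants and at 17.9 and 17.1 FPKM in wild type cells, with a log2 difference of 0.71 ± 0.09 (SE), or -0.01 relative to the listed rows. The cyclin D1 gene ccnd1, which drives entry into the cell cycle, was at 64.2, 81.5 and 86.9 FPKM in prdm3 mutants and at 33.4 and 31.1 FPKM in wild types. Its log2 difference was 1.23 ± 0.17 (SE), or 0.49 relative to the listed rows, second to igf1ra among the let-7 targets. The insulin-like growth factor receptor gene igf1ra, named after its values were seen, was at 4.19, 7.03 and 4.04 FPKM in prdm3 mutants and at 1.26 and 1.57 FPKM in wild types, and its highest library was mutant replicate 2, as for lin28a. The RAS gene nras averaged 6.52 ± 0.563 FPKM in prdm3 mutants and 4.00 ± 0.193 FPKM in wild types. The zinc finger gene plagl2 averaged 11.7 ± 0.868 FPKM in prdm3 mutants and 7.08 ± 1.19 FPKM in wild types.

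The highest levels among the 17 were those of hmga1a, hmga2 and igf2bp1. The architectural chromatin protein gene hmga2, a classical let-7 target, was at 131, 136 and 134 FPKM in prdm3 mutants and at 107 and 92.1 FPKM in wild types. Its relative hmga1a was at 679, 889 and 752 FPKM in prdm3 mutants and at 423 and 454 FPKM in wild types. The log2 difference was 0.42 ± 0.08 (SE) for hmga2 and 0.81 ± 0.15 for hmga1a, and relative to the listed rows -0.33 for hmga2 and 0.06 for hmga1a. The oncofetal messenger RNA-binding genes igf2bp1 and igf2bp3, both named after their values were seen, averaged 130 ± 20.6 and 25.3 ± 1.60 FPKM in prdm3 mutants, against 83.7 ± 6.83 and 14.8 ± 3.21 FPKM in wild types. Of the receptor genes of the TGF-β family, tgfbr1a averaged 3.02 ± 0.0944 FPKM in prdm3 mutants and 2.02 ± 0.305 FPKM in wild types. In this paragraph and the one before, n = 3 mutant and n = 2 wild type libraries stand behind each mean ± SD.

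Of 29 genes of microRNA processing and let-7 turnover, 6 were listed as higher in prdm3 mutants (20.7%, beside 12.7% of all genes tested) and 0 as lower (beside 0.783%). Relative to the listed rows, 4 of the 6 stayed above wild type, though ago1 and syncrip by only 0.009 and 0.04. The one with the largest difference was trim71, itself a let-7 target and the vertebrate relative of the worm gene lin-41. It was at 18.5, 25.0 and 15.8 FPKM in prdm3 mutants and at 8.34 and 10.04 FPKM in wild type cells, a log2 difference of 1.01 ± 0.26 (SE), or 0.31 relative to the listed rows. Next came hnrnpa1b, whose human relative binds the let-7 precursor and hinders its processing, at 41.7, 74.4 and 52.5 FPKM in prdm3 mutants and at 26.3 and 27.6 FPKM in wild types. By contrast khsrp, whose human relative promotes let-7 processing, was at 38.8, 41.9 and 40.4 FPKM in prdm3 mutants and at 27.7 and 30.4 FPKM in wild types. By FPKM, genes with opposed known effects on let-7 were thus listed on the same side. The log2 difference was 0.99 ± 0.31 (SE) for hnrnpa1b and 0.46 ± 0.06 for khsrp, or 0.26 and -0.27 relative to the listed rows. Those signs depend on a shift taken from rows selected for differing, so nothing is read from them. The Argonaute gene ago1, whose product carries mature microRNAs, averaged 8.64 ± 0.592 FPKM in prdm3 mutants (SD, n = 3) and 5.09 ± 0.404 FPKM in wild types (SD, n = 2). The other listed members were syncrip and xpo1a, with log2 differences of 0.78 and 0.47. The genes of the uridylating enzymes TUT4 and TUT7 and of DIS3L2 were not among the listed rows.

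**Figure D3:**
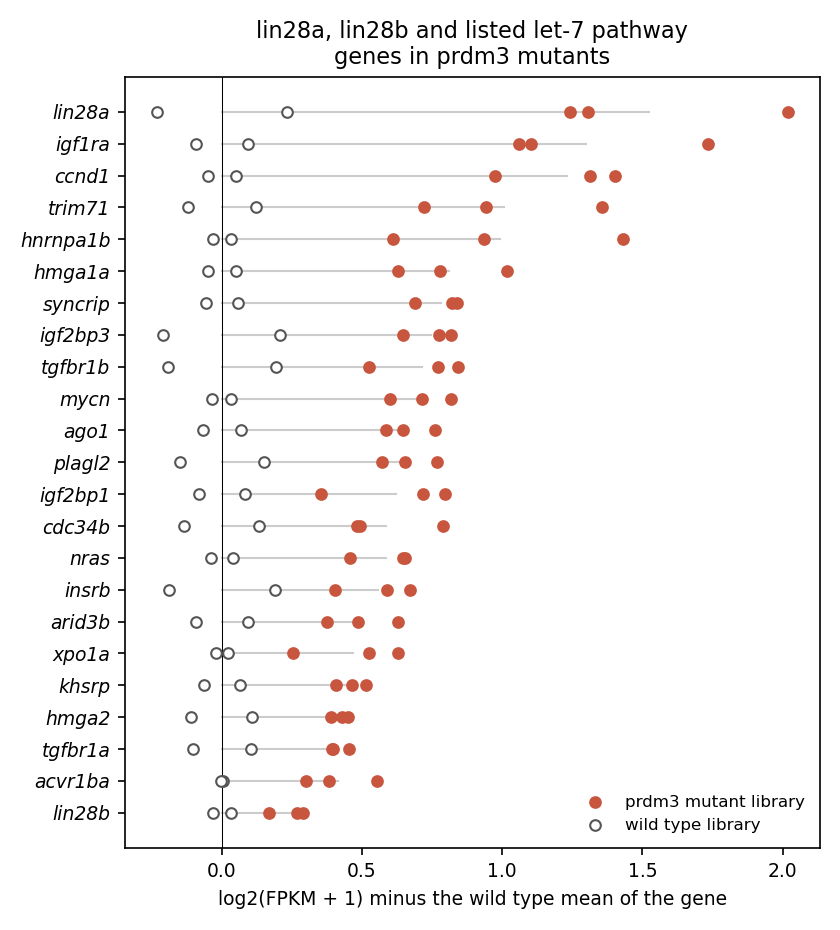
Levels of lin28a, lin28b and the listed let-7 target and processing genes in each prdm3 mutant library (filled) and wild type library (open), as log2(FPKM + 1) minus the wild type mean of the gene; the grey bar runs to the mutant mean. All mutant points lie right of all wild type points, from lin28b at a mean of 0.24 to lin28a at 1.52. Every gene shown was selected by the authors' threshold. Relative to the 0.75 shift of the listed rows, selected for differing, hmga1a (0.81) and the genes below it lie near or below wild type.

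Reprogramming factors and known regulators of lin28a gave 3 listed members of 21 in prdm3 mutants (14.3%), near the 12.7% of all genes tested. They were sall4, sox2 and mycn. The stem cell factor gene sall4 was at 30.3, 44.3 and 28.2 FPKM in prdm3 mutants and at 18.2 and 15.5 FPKM in wild types, and mutant replicate 2 was again the highest library. The neural and stem cell factor gene sox2 was at 16.5, 21.4 and 16.8 FPKM in prdm3 mutants and at 11.2 and 8.97 FPKM in wild types. Of 28 genes of LIN28 messenger RNA partners and of insulin, PI3K and mTOR signalling, 2 were listed as higher (7.14%), below the 12.7% of all genes tested. These were the translation repressor gene eif4ebp2, which averaged 39.2 ± 7.63 FPKM in prdm3 mutants (SD, n = 3) and 18.7 ± 1.22 FPKM in wild types (SD, n = 2), and the PI3K subunit gene pik3ca, which averaged 4.23 ± 0.168 FPKM in prdm3 mutants and 2.69 ± 0.261 FPKM in wild types.

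In prdm16 mutants 22 of the 123 pathway genes were listed as lower (17.9%), a smaller share than the 27.4% of all genes tested. Listed as higher were 0, near the 0.734% of all genes tested, so nothing is read from that count. Among the 48 let-7 targets 8 were lower (16.7%, also below 27.4%), and 4 of these were listed at 0 in both mutant libraries. The MYC gene myca was listed at 0 and 0 FPKM in prdm16 mutants and at 13.0, 6.58 and 6.22 FPKM in wild types. The ubiquitin-conjugating enzyme gene cdc34b was at 0.182 and 0 FPKM in prdm16 mutants and at 12.0, 6.99 and 8.62 FPKM in wild types. The RNA-binding gene igf2bp2b was at 0 and 0.450 FPKM in prdm16 mutants and at 9.10, 8.12 and 4.57 FPKM in wild types. The other 5 lower targets were tgfbr1a, hrasa, nras, plag1 and cdc34a. A listed 0 in these libraries can be a failed estimate, because 2540 rows stand at 0 in both of them, so no fold is given.

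The microRNA processing list had 6 lower genes of 29 in prdm16 mutants (20.7%), and this share and those of the lists that follow lay below the 27.4% of all genes tested. The nuclease gene drosha and its partner dgcr8, which cut primary microRNAs, were both listed at 0 in the mutant libraries. Wild type levels were 12.0, 8.26 and 4.86 FPKM for drosha and 0.752, 1.27 and 1.15 FPKM for dgcr8. The genes msi2b, ago3b and prkra were also at 0 in both mutant libraries, and ddx17 was at 0 and 0.292 FPKM. Of the reprogramming and regulator list, 4 genes of 21 (19.0%) were lower, each at 0 in both mutant libraries. They were myca and the Wnt effector genes lef1, tcf7 and tcf7l2, the last at 16.2, 7.89 and 14.4 FPKM in wild types. Of the LIN28 partner and insulin, PI3K and mTOR list, 5 of 28 (17.9%) were lower, all at 0 in both mutant libraries (dhx9, eif4ebp3l, igf2a, rheb and ptena). Where a gene is listed in both tables, the prdm3 and prdm16 comparisons share wild type libraries.

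Among the 283 other genes that both tables list and that have a symbol of their own, 6 had levels that followed lin28a most closely over the 8 libraries. Pearson correlations on log2(FPKM + 1) were 0.99 for fscn1a, 0.98 for eif4g2a and 0.97 for ank2b, tmtc3, anp32e and gmfb. The candidates listed higher in both tables came first in this order, down to the 13th, dnmt3ba, at 0.39. The 14th, slbp, stood at -0.52, so the closest genes were in effect drawn from 13. The correlations are descriptions, since the libraries share genotypes and scaling and all candidates were selected for differing. The actin-bundling gene fscn1a averaged 37.8 ± 4.14 FPKM in prdm3 mutants, 80.4 ± 11.0 FPKM in prdm16 mutants and 30.4 ± 3.79 FPKM in wild types. The ankyrin gene ank2b averaged 19.3 ± 2.19 FPKM in prdm3 mutants, 93.7 ± 26.2 FPKM in prdm16 mutants and 14.2 ± 2.27 FPKM in wild types. The histone chaperone gene anp32e averaged 19.6 ± 1.90 FPKM in prdm3 mutants, 68.5 ± 5.02 FPKM in prdm16 mutants and 14.2 ± 4.67 FPKM in wild types (SD, n = 3, 2 and 3 for these genes). For fscn1a, eif4g2a and anp32e the prdm3 mutant and wild type ranges overlapped once wild type replicate 1 was counted, which they did not for lin28a. The followers moved less than lin28a, with log2 differences from 0.41 to 0.71 in the prdm3 table and from 1.15 to 2.62 in the prdm16 table. Relative to the shift of the listed rows, anp32e and gmfb stayed above wild type in the prdm3 table and the other 4 lay below it, while all 6 stayed above in the prdm16 table. Of all 339 gene IDs that both tables list, 16 were listed higher in both, and lin28a had the largest difference of the 16 in each table. Of all rows, 94.2% were higher in the prdm3 table and 2.61% in the prdm16 table, so nothing is read from the count of 16. The place of lin28a among them rests on the values by which it was chosen.

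**Figure D4:**
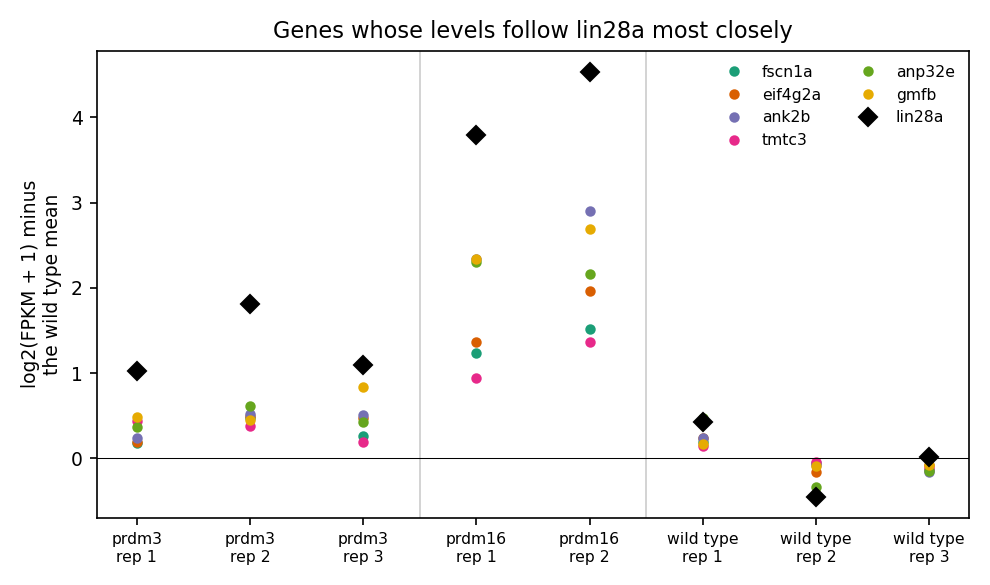
Levels of lin28a (diamonds) and of the 6 genes most correlated with it (circles) in each RNA library, as log2(FPKM + 1) minus the mean of the 3 wild type libraries. All 7 genes are highest in the prdm16 mutants, and lin28a lies above the others in every mutant library.

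The neighbours of lin28a were taken from RefSeq (assembly GRCz12tu, used for gene order only) as the genes beside lin28ab, and the link of ENSDARG00000016999 to lin28ab is by symbol only. Of the 3 nearest protein-coding genes on each side, 0 of 6 were in the prdm3 table and 2 of 6 were listed as lower in the prdm16 table. With 12.7% (prdm3) and 0.734% (prdm16) of all genes tested listed higher, and 27.4% listed lower in prdm16 mutants, counts over 6 genes show nothing particular to this neighbourhood. The gene hivep3a was listed at 0 and 0 FPKM in mutants and at 1.08, 0.922 and 1.17 FPKM in wild types of the prdm16 table. The adjacent gene pdik1l was listed at 0 and 0 FPKM in mutants and at 1.56, 0.922 and 1.30 FPKM in wild types. The other 4, serinc2, ftr55, ppp1r8a and foxo6b, were in neither table.

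Markers of cells that the sort could hold moved as follows beside lin28a. In bulk libraries, more cells of a type and more RNA per cell cannot be told apart. The counts stand beside 12.7% of all genes tested listed higher and 0.783% lower in prdm3 mutants, and 0.734% higher and 27.4% lower in prdm16 mutants. The sums given cover only the listed markers. Those were selected for differing, so the sums separate the groups by selection and nothing about marker content is read from them. Of 10 germ cell markers, which include ddx4, nanos3 and dazl, 0 were in either table. Of 23 neural progenitor and neuron markers, sox2 and stmn1b were listed as higher in prdm3 mutants (8.70%), and their summed level was 34.6 to 44.3 FPKM in prdm3 mutants and 22.6 to 23.2 FPKM in wild types. In prdm16 mutants 3 neural markers were lower (gap43, fabp7a and zic2a; 13.0%), a smaller share than over all genes, with a sum of 0 to 0.281 FPKM in mutants and 27.5 to 33.4 FPKM in wild types. Of 20 blood, endothelium, muscle and epidermis markers, krt91 was listed as higher and tnnt3a as lower in prdm3 mutants, and hbbe1.1 and hbbe2 were at 0 in both prdm16 mutant libraries. Of 28 cranial neural crest and arch markers, 6 were listed as higher in prdm3 mutants (21.4%), 3 of them still above wild type relative to the listed rows. The sum over these 6 was 126 to 130 FPKM in prdm3 mutants and 77.3 to 81.1 FPKM in wild types. In prdm16 mutants 5 were lower (17.9%), again a smaller share than over all genes, and foxd3, id2a, msx1b and tfap2b were at 0 in both mutant libraries. The fifth, barx1, was at 2.01 and 0 FPKM in prdm16 mutants and at 14.9, 14.4 and 15.4 FPKM in wild types. The gene sox10 itself was among the 28 crest and arch markers and was in neither table, so no level of it is given. The part of these markers in the levels of lin28a was not tested.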

How the data were processed

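RNA was measured in sorted cells with a Pico input library kit, per the labels' protocols. The authors deposited 1 table per mutant, holding a value per library, group means, a signed fold score, a p-value and a q-value. The header names no unit. The values are taken as FPKM made by the authors, since the submitters' processing notes name Cufflinks, with TopHat2 2.1.1 and danRer11. Read depth is unknown. The tables list genes past a threshold, an unadjusted p below 0.05 (prdm3) or q below 0.05 (prdm16). No source used here names the authors' test; their p was matched within 1%, in each of the 1520 and 2990 rows, by a two-sided test with equal variances on the log2(FPKM + 1) values. From p, its rank and q, the tests behind the tables numbered 11242 and 10623. Computation used Python 3.11.15 with pandas 2.3.3, numpy 2.4.6 and scipy 1.17.1, and was tested on simulated data. The pseudocount was 1 FPKM. No model across genes was fitted, because genes that missed the threshold are not held, so calls rest on the authors' p and q.

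The gene, the lists and the tests were chosen with earlier results of these data known, some list members (ccnd1, sox2, tgfbr1b and lef1 among them) included. Named genes are the 3 rows above and below lin28a by difference, the 6 most correlated genes, up to 8 listed members of each list by smallest p, and the 3 nearest genes on each side. List symbols were matched through RefSeq symbols and synonyms. The number of per-sample columns left unused was 0. The comparison of ATAC peaks around lin28a that the design named was not made, because the annotation used here is of another build than the peaks. Sequences are not shown.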

Additional observations from a re-analysis of the deposited data

Results flagged for a closer look

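Among the pathway genes listed in both tables, nras and tgfbr1a lay above every wild type library in all prdm3 mutants and below every wild type library in all prdm16 mutants. The log2 difference in prdm3 mutants was 0.59 for nras and 0.41 for tgfbr1a, but -0.05 and -0.12 relative to the shift of the listed rows. The level of nras averaged 6.52 FPKM in prdm3 mutants (n = 3), and it was listed at 0.388 and 0 FPKM in prdm16 mutants and at 3.38, 4.14 and 3.87 FPKM in wild types. The level of tgfbr1a averaged 3.02 FPKM in prdm3 mutants, and it was listed at 0 and 0 FPKM in prdm16 mutants and at 1.92, 1.81 and 2.24 FPKM in wild types. Of all rows, 94.2% were higher in the prdm3 table and 2.61% in the prdm16 table. Of the 339 gene IDs that both tables list, only 16 were listed higher in both. Opposed directions are thus usual among genes listed in both, and nothing particular to nras and tgfbr1a is read from them. The difference between the mutants was not tested, and a listed 0 in prdm16 mutants can be a failed estimate.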

How the results depend on the processing

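Of 46 alternative values for lin28a and the counts, 9 repeat another setting or could not differ by construction. Of the other 37, 25 stayed within the spread between libraries or within 1.5 times a count, and 0 turned the direction. For most settings that 0 was fixed beforehand. All mutant libraries lay above all wild types for lin28a, so leaving out or regrouping libraries could not turn it, and ranks and counts have no direction. The 14 pathway genes that reversed under rescaling, given below, are not among these values. With a pseudocount of 10 FPKM the log2 difference of lin28a was 1.06 in prdm3 and 3.50 in prdm16 mutants. Rescaling each library by the rows above 0 everywhere gave 0.81 and 2.98, and it removed a shift of 0.75 and 1.22 between the groups; those rows were themselves selected for differing, so the shift holds what the tables were chosen for. Under that rescaling 14 of the 26 pathway genes listed higher in prdm3 mutants reversed, from -0.46 (lin28b) to -0.01 (mycn), as did 631 of all 1432 rows listed higher. All 22 lower pathway genes in prdm16 mutants stayed lower, as did all 2912 lower rows. The shift removed there was upward in the mutants, so its removal moved lower genes further down, and nothing is read from that count. Leaving out 1 library gave 1.28 to 1.76 for prdm3 and 3.796 to 4.53 for prdm16 mutants. With a pseudocount of 0.1 FPKM lin28a was 97th in the prdm3 and 6th in the prdm16 table, as that setting widens the differences of rows near 0. Without 1 mutant library, 6 to 8 of the 17 let-7 targets listed higher in prdm3 mutants kept an unadjusted p below 0.05. Without mutant replicates 1, 2 and 3 these were 47.1%, 41.2% and 35.3%, beside 56.2%, 49.0% and 50.4% of all rows listed higher. At q below 0.05 the pathway genes listed higher in prdm3 mutants numbered 0, against 26 at the unadjusted p. Where only genes above 0 in at least 1 library per group were kept, the lower pathway genes in prdm16 mutants numbered 5 in place of 22. That filter drops 2540 of all 2912 rows listed lower in prdm16 mutants, so nothing particular to the pathway is read from the fall. By Spearman correlation 3 of the 6 followers of lin28a stayed among the first 6. With the replicate block, pairing libraries by replicate number, the log2 difference was 1.66 in prdm3 and 4.17 in prdm16 mutants. These are the same libraries as without mutant replicate 1 (prdm3) and without wild type replicate 3 (prdm16). Libraries with the same replicate number did not deviate together (correlations from -0.11 to 0.01), and the groups share only 2 replicate numbers in each table. No such correlation was computed for the number that opens the labels. Settings that concern ATAC peaks were not run. The rescaling of pathway genes, settings by the word cleaned, by the opening number and by the gene that wild type labels name, ratios to lin28b and eef1a1l1 and the let-7 counts without 1 mutant library were chosen after seeing the data. Depth is unknown, so low levels have no stated precision.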
